A study of Rattus norvegicus with 4 samples.

Results

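Kidney genes of the extracellular matrix and of fibrosis were examined across 4 arrays, as the 36 listed genes for collagens, matrix proteins, TGF-beta ligands, metalloproteinases and their inhibitors. The members are all probe sets whose platform gene symbol is one of these genes, which gave 56 probe sets for 35 genes out of 15866 probe sets for 10411 named genes. Thbs1 was not analysed here. Of the 35 genes, 18 had 1 probe set and 17 had 2 or more.

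Each array carried RNA pooled from the kidneys of male rats aged 9 weeks. The 4 groups were spontaneously hypertensive rats (SHR, an inbred strain with inherited high blood pressure) treated before birth with nicotine (13 animals) or with saline (12 animals), and Brown Norway rats (BN, an inbred strain with normal blood pressure) treated before birth with nicotine (12 animals) or with saline (12 animals). The series asks how nicotine before birth affects kidney structure and gene expression. A group is 1 pool on 1 array, so a comparison of 2 groups has no replicate and nothing shows the spread between animals.

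The extracellular matrix is the scaffold around kidney tubules, capillaries and glomeruli. Fibrillar collagens fill the interstitium, while type IV collagen, laminins and nidogen form the basement membranes on which the epithelium rests. TGF-beta drives matrix production, Ccn2 is one of its classical targets, metalloproteinases cut matrix proteins and Timp proteins inhibit them. Excess interstitial matrix, called fibrosis, is a common end point of chronic kidney disease.

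Values are MAS5 signals on an arbitrary linear scale, scaled by the authors to a common level, and the levels of different probe sets cannot be set against each other. A floor of 44.5, the 40th percentile of the values, replaced lower signals before taking log2, and a probe set was called measured when a value reached 89.0. Between 59.0% and 60.7% of all probe sets reached the floor on an array. Tubule markers fitted the labelled tissue: all 6 proximal tubule genes, all 5 genes of the loop of Henle and distal tubule and 4 of 4 collecting duct genes on the array were measured. No fat cell marker of 4 was measured. For RNA integrity, the beta-actin probe sets at the 3' and 5' end had a ratio of 1.34 and 1.39 on the SHR arrays and 1.49 and 1.54 on the BN arrays, so SHR was lower under both treatments. The same ratio for Gapdh overlapped between strains.

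Of the 56 member probe sets, 33 for 22 genes were measured on at least 1 array, 14 lay between the floor and that limit on some array, and 9 stayed below the floor on all 4. The 13 genes with no measured probe set include all TGF-beta ligands and several enzymes of matrix turnover. Tgfb1, the main profibrotic ligand, read 5.3 and 5.2 in the SHR nicotine and saline pools and 7.9 and 4.5 in the BN nicotine and saline pools. Tgfb2 stayed below the floor in both of its probe sets, and Tgfb3 reached at most 50.9, in the SHR nicotine pool. Both SHR values of Tgfb3, 50.9 and 47.7, were above the floor and above both BN values, 30.2 and 33.5. Tgfb1 and Tgfb2 were not detectable at this signal level, which does not show that they are absent.

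Among the enzymes and matrix proteins without a measured probe set, Mmp9, a gelatinase of leukocytes, read at most 25.2. Mmp2, the gelatinase of stromal cells, read 55.6 and 79.1 in the SHR nicotine and saline pools and 69.3 and 60.9 in the BN nicotine and saline pools. Lox, which crosslinks collagen and elastin, read 46.7 and 53.9 in those SHR pools and 56.1 and 46.6 in those BN pools. Postn, a matricellular protein of fibrotic tissue, read at most 4.3, and Lum, a small proteoglycan, at most 45.03. Col5a1, Col6a1, Col15a1 and the microfibril gene Fbn1 lay above the floor on some array but below 89.0, Col6a1 by the narrowest margin with 88.9 in the SHR saline pool. The interstitial collagenase inhibitor Timp1 also fell short: it read 74.5 and 78.2 in the SHR nicotine and saline pools, against 37.3 and 51.1 in the BN nicotine and saline pools. Both SHR values of Timp1 were above both BN values, but none was high enough to be tested.

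Averaged over treatments, 13 member probe sets for 8 genes rose in SHR relative to BN and none fell: Col1a2, Col3a1, Col5a2, Col4a1, Sparc, Ogn, Ccn2 and Timp3. That is 13 of 31 tested probe sets, or 41.9%, where 8.67% of all 7037 tested probe sets passed as higher and 9.42% as lower (limma, additive model of strain and treatment, Benjamini-Hochberg adjusted p under 0.05). With only the brightest probe set of each gene, 6 of 22 members rose, or 27.3%, and 8.28% of all 5444 genes did. Sparc and Col1a2 were not among the 6, since their brighter probe sets did not pass. Of these 6, Col5a2 and Ogn entered the test through SHR alone, the strain where they are high, as did 3 of the 13 probe sets. The members were chosen with earlier results of these data known. These shares are therefore descriptive and do not test matrix genes as a set. The median log2 difference, SHR minus BN, was 0.16 over the 31 member probe sets and 0.00 over all tested ones. Both SHR arrays read above both BN arrays in 17 of the 31 and below them in 3, where 30.8% and 28.9% of all tested probe sets did so.

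**Figure D1:**
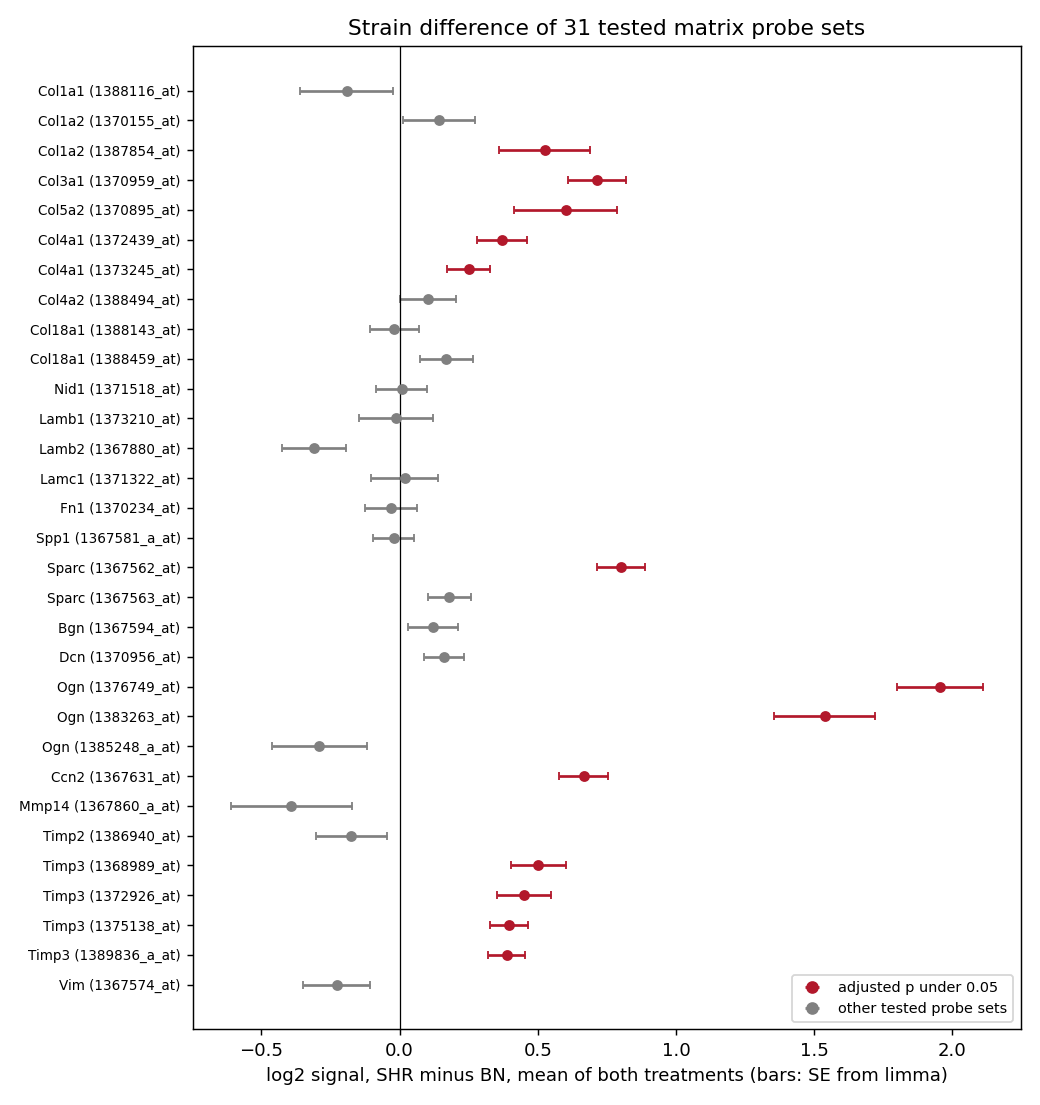
Log2 difference between strains (x axis, SHR minus BN, averaged over both treatments) for the 31 tested member probe sets, with bars for the limma standard error. The 13 red points passed at an adjusted p under 0.05 and all lie to the right of 0, from 0.25 for 1 Col4a1 probe set to 1.95 for 1 Ogn probe set.

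This test has 2 arrays a strain and 1 residual degree of freedom, which is how far the strain difference changes between treatments. That residual holds array noise and any nicotine response that differs between strains, which cannot be told apart. The p-values borrow most of their spread from other probe sets and do not measure the spread between pools of a group. The nicotine test has the same residual. Without the SHR nicotine, the SHR saline, the BN nicotine or the BN saline array, in fits with strain as the only factor, 9, 7, 5 and 7 member probe sets rose, against 12 with that factor alone on all 4 arrays. Each such fit has a strain with a lone array, assumed to vary like the other strain's 2 arrays, which differ by treatment. Col3a1, Sparc 1367562_at and 2 Ogn probe sets were among the rises each time, and Ccn2 each time but without the SHR saline array, where its adjusted p was 0.0509 with limma. Members fell in 3 alternatives: Mmp14 without the SHR nicotine array, Vim without the BN saline array and Lamb2 with the floor at the 60th percentile. No member and no probe set of the whole table passed with no filter on low probe sets, where the smallest adjusted p was 0.308 with limma and 1719 probe sets had an unadjusted p under 0.05.

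Other cell types were compared by their marker genes. Each sum takes 1 probe set a gene, measured or not, and is led by its brightest probe sets. The summed signal of the 8 fibroblast and pericyte markers was 1013.2 and 1041.2 in the SHR nicotine and saline pools. In the BN nicotine and saline pools it was 1081.3 and 1021.3, so these sums overlapped between strains. Only Pdgfra, Nt5e and S100a4 were measured and tested, and of these 3 none rose and S100a4 fell. Fap, Pdgfrb and Thy1 had no measured probe set, and Cspg4 and Rgs5 were below the floor on all arrays. Smooth muscle markers summed to 495.6 and 519.3 in SHR against 417.1 and 409.1 in BN, with 1 of 3 tested higher and Cnn1 and Tagln below the floor. Macrophage and leukocyte markers summed to 4113.5 and 3469.8 in SHR against 2946.1 and 2682.9 in BN, with 2 of 4 tested higher and the leukocyte antigen Ptprc below the floor. Endothelial markers summed to 1374.9 and 1240.0 in SHR and 1266.8 and 1232.2 in BN, with 1 of 4 higher and 1 lower. Of the nephron lists, proximal tubule markers had 5 of 8 tested probe sets higher and 1 lower in SHR, a larger share of rises than among the members, with sums of 14824 and 15050.1 in SHR against 13238 and 13480 in BN. Collecting duct markers had 0 higher and 2 of 4 lower, with sums of 1492 and 1737 in SHR against 1883 and 1965 in BN. Loop of Henle and distal tubule markers had 1 of 5 higher and 2 lower. Podocyte markers had 1 of 3 lower and 0 higher, with sums of 805.9 and 799.1 in SHR against 955.2 and 967.0 in BN. The part of cell composition and of RNA integrity in the strain result was not tested. In whole kidney RNA, fewer cells of a type and less RNA per cell cannot be told apart.

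Among the fibrillar collagens, 3 of 5 tested probe sets rose in SHR and none fell. Col3a1, the chain of type III collagen, had signals of 317.9 and 345.1 in the SHR nicotine and saline pools. It read 212.0 and 192.0 in the BN nicotine and saline pools. The pools of the strains did not overlap, and the log2 difference was 0.72 (SE 0.11, adjusted p = 8.42e-05 with limma), or 1.64-fold. Col5a2, a chain of type V collagen that sits inside fibrils, read 91.9 and 100.8 in SHR, against 65.4 and 61.7 in BN. Its difference was 0.60 (SE 0.19, adjusted p = 0.0336 with limma), and only the SHR pools reached the limit for a measured signal. The call was lost in 8 of 11 alternatives, among them each fit without 1 array (limma adjusted p from 0.058 to 0.143). The other Col5a2 probe set, not measured, read 64.7 and 74.7 in SHR against 39.97 and 38.95 in BN, which is the same direction. Col3a1 and Col5a2 lie next to each other in the rat genome assembly GRCr8, with no protein-coding gene between them.

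Type I collagen, the most abundant collagen of scars, gave a mixed picture. One Col1a2 probe set (1387854_at) read 157.9 and 105.6 in the SHR nicotine and saline pools, against 92.9 and 86.6 in the BN nicotine and saline pools, a log2 difference of 0.52 (SE 0.17, adjusted p = 0.0343 with limma). The SHR nicotine pool was the highest of the 4, and without it the difference was 0.23 (limma adjusted p = 0.378), against 0.82 without the SHR saline array. The call was lost in 9 of 10 alternatives. The other Col1a2 probe set (1370155_at) read 144.4 and 170.8 in SHR and 139.7 and 144.9 in BN, and its log2 difference of 0.14 (SE 0.13) did not pass. For Col1a1, probe set 1388116_at read 94.4 and 80.6 in SHR and 106.1 and 93.4 in BN. Its other probe set, 1370864_at, read 84.6 and 89.9 in SHR and 70.6 and 72.2 in BN, so both probe sets of this gene pointed in opposite directions. Of the 3 tested probe sets for type I collagen, 1 passed; 1370864_at was too low to be tested, though both SHR values were above both BN values.

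In the basement membrane, both probe sets of Col4a1 rose in SHR, and none of the other 7 tested probe sets of this group passed. Probe set 1372439_at of Col4a1, a chain of the type IV collagen network, read 402.6 and 399.7 in the SHR nicotine and saline pools, against 323.1 and 297.6 in the BN nicotine and saline pools. Probe set 1373245_at read 605.3 and 626.4 in SHR, against 503.7 and 532.5 in BN. The log2 differences were 0.37 (SE 0.09, adjusted p = 0.00734 with limma) and 0.25 (SE 0.08, adjusted p = 0.0335 with limma), both without overlap between strains. Neither passed when any 1 array was left out (limma adjusted p from 0.07 to 0.26), and the calls were lost in 6 of 11 and 9 of 12 alternatives. Col4a2, whose product assembles with that of Col4a1, read 348.1 and 340.2 in SHR and 286.6 and 358.4 in BN, where the BN saline pool was the highest of the 4.

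None of the other basement membrane members passed. Nid1, which links laminin to type IV collagen, had a log2 difference of 0.01 (SE 0.09) in its brighter probe set, with 327.6 and 373.7 in SHR and 351.3 and 345.0 in BN. Col18a1, the precursor of endostatin, read 376.3 and 377.8 in SHR and 389.5 and 374.6 in BN in probe set 1388143_at, and 307.9 and 321.1 in SHR and 278.8 and 280.7 in BN in probe set 1388459_at. The laminin chains Lamb1 and Lamc1 had log2 differences of -0.01 (SE 0.13) and 0.02 (SE 0.12). Lamb2, the laminin chain of the mature glomerular filter, read 172.1 and 168.7 in SHR against 216.1 and 206.3 in BN, and its log2 difference of -0.31 did not pass (SE 0.12, adjusted p = 0.0742 with limma).

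**Figure D2:**
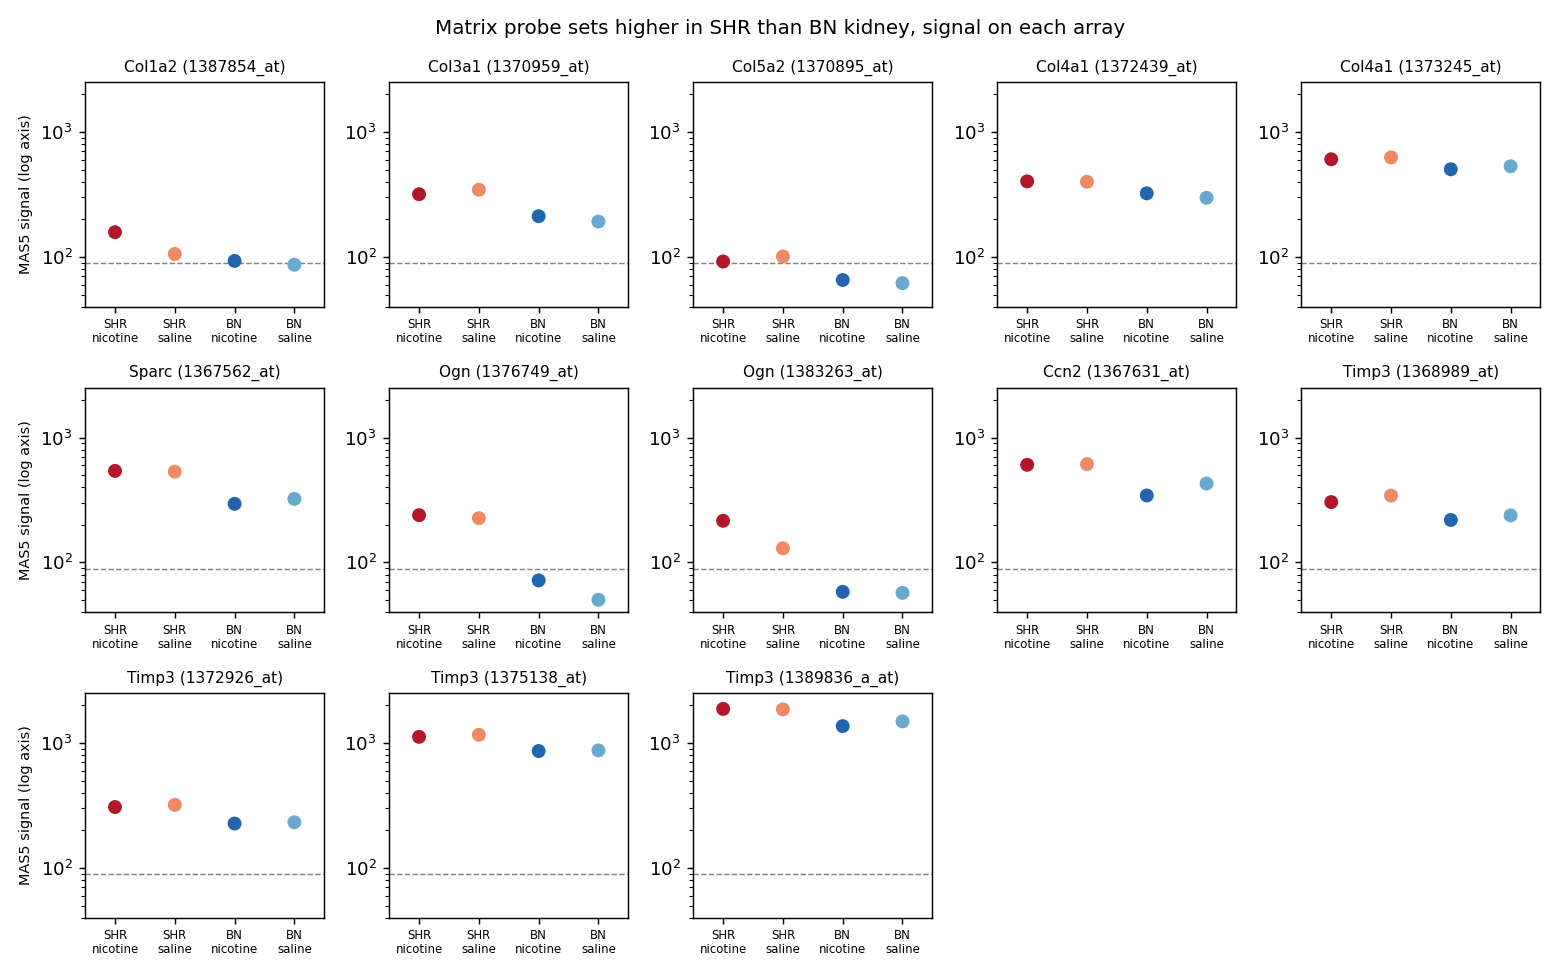
MAS5 signal (y axis, log scale) on each of the 4 arrays for the 13 probe sets that rose in SHR; the dashed line marks 89.0, the limit for a measured signal. In every panel both SHR points lie above both BN points, with the widest gap for Ogn 1376749_at, at 239.2 and 226.2 in SHR against 71.8 and 50.2 in BN.

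Among adhesive and matricellular proteins, 1 of 2 Sparc probe sets passed as higher in SHR, while Fn1 and Spp1 were level between strains. Sparc, a collagen-binding protein of remodelling tissue, read 540.7 and 532.7 in the SHR nicotine and saline pools, against 294.4 and 322.7 in the BN nicotine and saline pools, for probe set 1367562_at. The SHR level was 1.74-fold that of BN, a log2 difference of 0.80 (SE 0.09, limma adjusted p = 2.69e-06). The other Sparc probe set, 1367563_at, read 642.9 and 644.1 in SHR against 561.6 and 574.6 in BN, a smaller log2 difference of 0.18 (SE 0.08, adjusted p = 0.12 with limma). The pools did not overlap in either probe set, but the sizes of the difference did not match. Fn1, fibronectin, read 337.3 and 282.8 in SHR and 341.2 and 291.7 in BN. Spp1, osteopontin, a secreted phosphoprotein of injured tubules, read 1539 and 1276 in SHR and 1407 and 1439 in BN.

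Ogn, a small leucine-rich proteoglycan also called mimecan, had the largest strain difference of the tested members. Probe set 1376749_at read 239.2 and 226.2 in the SHR nicotine and saline pools, against 71.8 and 50.2 in the BN nicotine and saline pools, a 3.87-fold rise in SHR (log2 1.95, SE 0.16, limma adjusted p = 5.54e-08). Probe set 1383263_at read 215.5 and 129.8 in SHR against 58.2 and 57.1 in BN, 2.90-fold higher (log2 1.54, SE 0.18, adjusted p = 7.73e-06 with limma). In both, only the SHR pools reached the limit for a measured signal. The other measured probe set, 1385248_a_at, did not follow, with 83.3 and 79.5 in SHR against 108.3 and 91.4 in BN (log2 -0.29, SE 0.17, adjusted p = 0.278 with limma), and the last one stayed below the floor on all arrays. Aspn, another proteoglycan gene separated from Ogn by 1 protein-coding gene in GRCr8, was below the floor on all arrays.

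The other small proteoglycans were nearly level. Dcn, decorin, which coats collagen fibrils, read 809.8 and 748.2 in the SHR pools and 709.4 and 684.0 in the BN pools, a log2 difference of 0.16 (SE 0.07, adjusted p = 0.151 with limma). Bgn, biglycan, had one of 0.12 (SE 0.09). Both SHR pools were above both BN pools for Dcn and Bgn, yet neither passed. Such separation was common, upward in 30.8% and downward in 28.9% of all tested probe sets. The 3 tested members with both SHR pools below both BN pools were Lamb2, Timp2 1386940_at and Ogn 1385248_a_at. The untested Lamc1 probe set 1370993_at had this order too.

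Of the TGF-beta group, Ccn2 was the only measured gene. Ccn2, connective tissue growth factor, read 604.8 and 612.3 in the SHR nicotine and saline pools, against 343.6 and 428.3 in the BN nicotine and saline pools. The rise in SHR was 1.59-fold, a log2 difference of 0.67 (SE 0.09, limma adjusted p = 2.88e-05). The SHR pools were close to each other, and the BN nicotine pool was the lowest of the 4.

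Timp3, the inhibitor of metalloproteinases that binds to the matrix, had the most even strain difference. All 4 of its probe sets rose in SHR, by log2 0.39 to 0.50. The brightest, 1389836_a_at, read 1875 and 1859 in the SHR nicotine and saline pools, against 1366 and 1491 in the BN nicotine and saline pools. Probe set 1375138_at read 1121 and 1164 in SHR against 863.0 and 873.5 in BN. Probe set 1368989_at read 304.3 and 343.1 in SHR against 218.8 and 237.9 in BN, and 1372926_at read 307.4 and 319.8 in SHR against 226.9 and 232.2 in BN. The strains did not overlap in any of them, and the adjusted p lay between 0.000402 and 0.00344 with limma. The call was lost in 4 of 11 alternatives for 1368989_at and for 1372926_at. It was lost in 3 of 11 for 1375138_at and in 3 of 12 for 1389836_a_at. Without the BN nicotine array none of the 4 passed, at adjusted p from 0.0512 to 0.11 with limma and log2 differences from 0.32 to 0.44. Timp2, another inhibitor, read 149.8 and 141.3 in SHR and 168.5 and 160.0 in BN in its measured probe set, a log2 difference of -0.17 (SE 0.13).

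Of 6 genes with more than 1 tested probe set, 4 had all of them in the same direction between strains (Col1a2, Col4a1, Sparc and Timp3) and 2 did not (Ogn and Col18a1). Of the 13 probe sets that rose, 10 had both strain means at or above 89.0. The other 3, Col5a2 and the pair for Ogn, entered the test through SHR alone.

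To show the regulatory sequence of genes that rose together, the promoters of 5 of them are given here from RefSeq on build GRCr8, from 250 bases before to 50 after the annotated start, 5′ to 3′ on the gene's strand. The regions are chr1:22624565-22624864 (minus strand) for Ccn2, chr10:40038767-40039066 (minus) for Sparc, chr17:15258946-15259245 (minus) for Ogn, chr7:19459509-19459808 (minus) for Timp3 and chr16:84885347-84885646 (plus) for Col4a1. These are sequences of the reference assembly, and the promoters of SHR and BN were not compared. The promoters of Col1a2 and Col5a2, which also rose, are not printed, and neither holds a TEAD motif. Capitals mark matches on either strand to a set of core promoter and factor motifs. The TATA box is spelled TATAAA. The CCAAT box is spelled as its name. The GC box is spelled GGGCGG. The TEAD motif is spelled GGAATG. The palindromic Smad motif is spelled GTCTAGAC. The AP-1 motif is spelled TGACTCA. In Ogn, the TATA box matches of both strands overlap.
Ccn2: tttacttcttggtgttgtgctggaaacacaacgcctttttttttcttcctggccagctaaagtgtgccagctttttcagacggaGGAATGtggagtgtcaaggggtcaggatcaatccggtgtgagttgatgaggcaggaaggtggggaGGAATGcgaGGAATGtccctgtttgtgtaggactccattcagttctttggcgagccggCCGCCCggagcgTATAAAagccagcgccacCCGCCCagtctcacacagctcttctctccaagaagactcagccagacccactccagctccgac
Sparc: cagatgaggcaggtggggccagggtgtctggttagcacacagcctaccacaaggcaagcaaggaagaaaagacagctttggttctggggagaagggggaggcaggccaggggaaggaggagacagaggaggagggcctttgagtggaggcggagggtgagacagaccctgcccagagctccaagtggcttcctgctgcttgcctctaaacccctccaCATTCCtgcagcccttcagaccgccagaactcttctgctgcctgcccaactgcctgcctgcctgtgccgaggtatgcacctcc
Ogn: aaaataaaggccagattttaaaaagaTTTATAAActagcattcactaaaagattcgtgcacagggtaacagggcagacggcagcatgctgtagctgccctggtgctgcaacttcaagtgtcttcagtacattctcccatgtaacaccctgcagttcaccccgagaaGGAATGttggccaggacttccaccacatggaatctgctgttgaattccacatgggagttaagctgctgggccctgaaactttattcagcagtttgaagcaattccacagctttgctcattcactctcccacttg
Timp3: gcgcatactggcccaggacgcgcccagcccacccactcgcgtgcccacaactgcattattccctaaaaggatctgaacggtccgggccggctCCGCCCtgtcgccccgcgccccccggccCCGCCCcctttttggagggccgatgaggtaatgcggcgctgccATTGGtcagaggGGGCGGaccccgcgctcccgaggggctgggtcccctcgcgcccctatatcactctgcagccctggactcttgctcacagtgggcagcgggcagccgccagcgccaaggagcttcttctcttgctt
Col4a1: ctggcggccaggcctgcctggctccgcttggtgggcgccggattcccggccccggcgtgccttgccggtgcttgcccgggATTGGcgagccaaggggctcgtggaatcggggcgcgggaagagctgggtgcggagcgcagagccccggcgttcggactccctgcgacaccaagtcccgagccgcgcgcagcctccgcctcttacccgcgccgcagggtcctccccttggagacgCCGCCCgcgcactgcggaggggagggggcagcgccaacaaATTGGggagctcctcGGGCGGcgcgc

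Promoters matched 26 of the 36 listed genes, and 7 of the 8 genes that rose. The Ccn2 promoter holds a TATA box beginning 31 bases before the start and 3 TEAD motifs beginning 166, 101 and 92 bases before it. TEAD factors are the DNA-binding partners of the YAP coactivator, of which Ccn2 is a textbook target. A TEAD motif was found in 3 of the 7 promoters of genes that rose (Ccn2, Sparc and Ogn), in 2 of 8 of the other tested members and in 14.2% of all 33469 promoters. The TATA box letters were found in 3 of 7, 2 of 8 and 14.2% of these sets. A CCAAT box was found in 3 of 7, 3 of 8 and 37.5% of them, and a GC box in 3 of 7, 7 of 8 and 33.1%. These counts take a match anywhere in the window. Among the genes that rose, the TATA box letters began at -31 in Ccn2, -170 in Col1a2 and -224 and -222 in Ogn, counted from the start. The matches in Col1a2 and Ogn thus lay farther from the start than that in Ccn2. The Smad motif, in 0.197% of all promoters, and the AP-1 motif, in 4.63%, matched none of the 7. Motifs this rare are seldom met in 7 promoters, so the lack of a match says nothing about these genes. Col4a1 and Col4a2 start 77 bases apart on opposite strands, so their windows share 176 bases.

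Genes outside the 36 were taken from 7 lists of matrix genes, 142 genes in all, of which 112 were on the array and 54 were measured. Of their 57 tested probe sets, 10 rose in SHR and 7 fell, or 17.5% and 12.3%. Of all tested probe sets, 8.67% and 9.42% did. These lists were also chosen with earlier results of these data known, so the shares are descriptive. Serpinh1, the chaperone that folds procollagen, had the largest rise, with 334.6 and 331.0 in the SHR nicotine and saline pools against 163.5 and 152.9 in the BN nicotine and saline pools (log2 1.07, SE 0.11, adjusted p = 7.99e-07 with limma). P4ha1, a prolyl hydroxylase of collagen, rose by log2 0.62, and Plod2, a lysyl hydroxylase of collagen, fell by 0.58 on the log2 scale. These were 2 higher and 1 lower of 7 tested for collagen synthesis and crosslinking.

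The other collagens gave 1 higher of 4, Col6a3, a chain of type VI collagen, at log2 0.51. Other basement membrane and elastic fibre genes gave 2 higher of 6, the laminin chain Lama2 at 0.63 and Fbln5, which helps to assemble elastic fibres, at 0.41. Lama2 reached the limit for the test through SHR alone, with 83.8 and 103.6 in SHR against 64.9 and 55.9 in BN. Other glycoproteins and proteoglycans gave 2 lower of 5: the TGF-beta-induced matrix protein Tgfbi at -0.55 and the cell surface proteoglycan Sdc1 at -0.52. Among integrins, the cell receptors for matrix, Itga3 was higher (0.34), 1 of 8 tested.

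The list of TGF-beta receptors and signalling had 3 higher and 2 lower of 18 tested. Smad6, an inhibitory Smad protein, rose by 0.75 on the log2 scale, but it entered the test through SHR alone. Its ratio was 1.18-fold under nicotine and 2.40-fold under saline, with the BN saline pool lowest at 51.2. Higher too were Skil, a repressor of Smad proteins, by 0.29, and Id1, a target of the BMP branch, by 0.29 on that scale. Bmp7, a growth factor of the tubule that opposes TGF-beta, fell by 0.34 on that scale. Klf10, a TGF-beta-induced transcription factor, fell by 0.90, but this rests on the SHR saline pool, at 41.3, since it read 137.0 in the SHR nicotine pool and 143.3 and 147.3 in the BN nicotine and saline pools. The proteases gave 1 higher and 2 lower of 9: the plasminogen activator Plau was higher (0.21), and the plasminogen activator Plat (-0.54) and Mmp24 (-0.35) were lower.

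**Figure D3:**
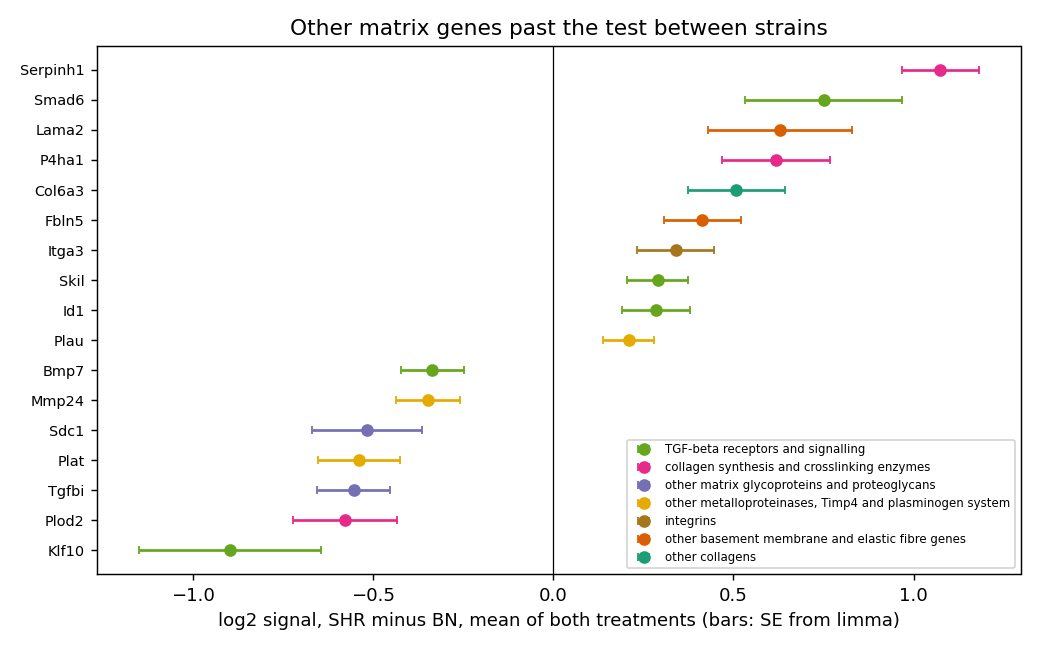
Log2 difference between strains (x axis, SHR minus BN, averaged over both treatments, bars for the limma standard error) for the 17 probe sets past the test in the 7 other matrix lists, coloured by list. The points run from -0.90 for Klf10 to 1.07 for Serpinh1, with 10 to the right of 0 and 7 to the left.

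Prenatal nicotine changed no member past the test. Averaged over strains, 0 of 30 tested member probe sets and 0 of 6924 tested probe sets in all had an adjusted p under 0.05 with limma, a share of 0%, and the smallest adjusted p among members was 0.407. Unadjusted, 3 members had p under 0.05 (Mmp14, Vim and Fn1, all higher under nicotine), where 5.43% of all tested probe sets did. The median log2 difference, nicotine minus saline, was 0.01 over the members and 0.00 over all tested probe sets. Both nicotine arrays read above both saline arrays in 4 of the 30 members (the 3 above and a Col1a1 probe set) and below them in 1 (a Col1a2 probe set), where 10.3% and 10.5% of all tested probe sets did so.

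Mmp14, a membrane-bound metalloproteinase that activates Mmp2, read 105.1 in the SHR nicotine pool against 45.2 in the SHR saline pool, and 98.6 in the BN nicotine pool against 82.9 in the BN saline pool. The SHR saline pool was thus the low one, while the SHR nicotine pool was near both BN pools. The nicotine ratio was 2.33-fold in SHR and 1.19-fold in BN, with an average log2 of 0.73 (SE 0.22, adjusted p = 0.474 with limma). In fits with treatment as the only factor, the log2 difference was 0.30 without the SHR saline array and 1.17 without the BN saline array. Such a fit sets a lone array of 1 strain against 2 arrays of both strains. Its difference therefore also holds the strain difference and is not an average of the nicotine ratios. Between strains its log2 difference was -0.39 (SE 0.22) and did not pass.

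Vim, vimentin, an intermediate filament of mesenchymal and injured epithelial cells, was high in another pool. It read 265.6 in the SHR nicotine pool against 238.5 in the SHR saline pool, and 381.8 in the BN nicotine pool against 227.4 in the BN saline pool. The BN nicotine pool alone was high. The average log2 was 0.45 (SE 0.12, adjusted p = 0.407 with limma). Without the BN nicotine array, with treatment as the only factor, the log2 difference was 0.19, which also holds the strain difference. Between strains the log2 difference of Vim was -0.23 (SE 0.12) and did not pass.

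Fn1 had smaller and more even ratios, 1.19-fold in SHR and 1.17-fold in BN, with 337.3 against 282.8 in the SHR pools and 341.2 against 291.7 in the BN pools, nicotine against saline. Its average log2 was 0.24 (SE 0.09, adjusted p = 0.743 with limma). When any 1 array was left out, with treatment as the only factor, the log2 difference lay between 0.22 and 0.26. These values also hold the strain difference.

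**Figure D4:**
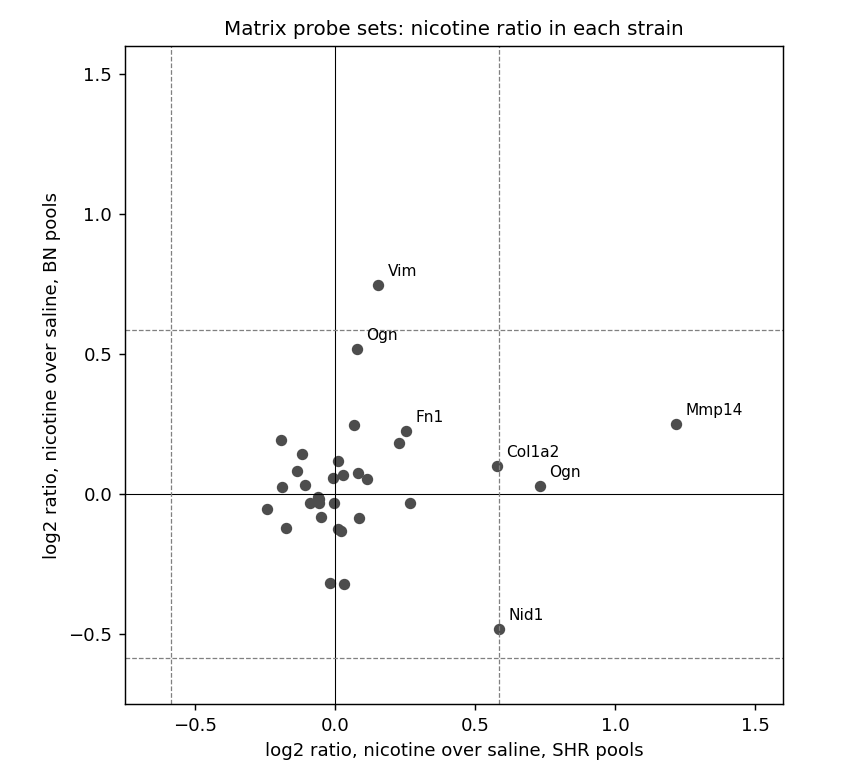
Log2 ratio of nicotine over saline in the SHR pools (x axis) and in the BN pools (y axis) for the 33 measured member probe sets, 1 point each, with dashed lines at 1.5-fold. Mmp14 lies far right (1.22 and 0.25) and Vim at the top (0.16 and 0.75), while most points lie near the centre.

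Counted by size with no test, 3 of 32 measured member probe sets were at least 1.5-fold higher under nicotine in SHR and 0 lower, where 1.07% and 0.904% of all measured probe sets were. They belong to Mmp14, Nid1 and Ogn. For Ogn, only probe set 1383263_at did so (1.66-fold), with ratios of 1.06 and 1.05 for the other 2 that were measured on some array. For Nid1, probe set 1371032_at read 98.7 in the SHR nicotine pool against 65.7 in the SHR saline pool, but 68.2 in the BN nicotine pool against 95.2 in the BN saline pool. In the brighter Nid1 probe set the log2 ratio was -0.19 for SHR and 0.03 for BN. Col1a2 1387854_at fell just short of 1.5-fold in SHR, and with ratios averaged over the probe sets of a gene Mmp14 alone stayed past it. Past 2-fold, Mmp14 was the only member higher in SHR and none was lower, where 0.113% and 0.0282% of all measured probe sets were.

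In BN, Vim was the only 1 of 29 measured member probe sets at least 1.5-fold higher under nicotine, and 0 were lower, where 0.735% and 0.894% of all measured probe sets were. No member was 2-fold apart in BN, where 0.0577% of all were higher and 0.13% lower. Ccn2, which differed between strains, had a log2 ratio of -0.02 in SHR and -0.32 in BN. The 4 Timp3 probe sets had log2 ratios between -0.17 and 0.01 in SHR and between -0.13 and -0.02 in BN, and Col3a1 had -0.12 and 0.14. The nicotine ratio had the same sign in both strains in 21 of the 33 measured member probe sets, 12 above and 9 below 0, or 63.6%, where 48.6% of all 7409 measured probe sets did.

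The nicotine list of other matrix genes was as flat, with 0 of 54 tested probe sets past the test. By size, P4ha2, a prolyl hydroxylase of collagen, read 95.4 in the SHR nicotine pool against 54.4 in the SHR saline pool, and 51.0 in the BN nicotine pool against 48.7 in the BN saline pool. Klf10 was at least 3.08-fold higher in the SHR nicotine pool than in the SHR saline pool, whose signal was below the floor. Smad6 read 79.7 in the BN nicotine pool against 51.2 in the BN saline pool, 1.56-fold apart, with both values under the limit for a measured signal. No other gene of these lists with a measured probe set was 1.5-fold apart between the pools of a strain.

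The strains were also compared within each treatment, by size and with no test. At least 1.5-fold, 5 of 32 measured member probe sets were higher in SHR and 0 lower under nicotine, where 4.2% and 4.24% of all measured probe sets were, and 5 of 32 were higher and 0 lower under saline, where 4.17% and 3.95% were. Sparc 1367562_at and 2 Ogn probe sets were among the 5 under both treatments, with Col1a2 1387854_at and Ccn2 under nicotine alone and Col3a1 and Col5a2 under saline alone. Single members differed in size or direction between treatments: the log2 ratio of Col1a2 1387854_at was 0.76 under nicotine and 0.29 under saline, that of Vim -0.52 and 0.07, and that of Nid1 1371032_at 0.53 and -0.54. The median log2 ratio over members was 0.19 under nicotine and 0.20 under saline, against 0.00 and 0.01 over all measured probe sets. Past 2-fold, both Ogn probe sets named above were the 2 members under nicotine and again under saline, where 1.16% and 1.15% of all measured probe sets were higher by that much. No member was 2-fold lower in SHR, where 0.98% of all were under nicotine and 1.14% under saline. For Ogn 1376749_at the ratio was 3.33-fold under nicotine and 4.51-fold under saline, and for 1383263_at it was 3.70-fold under nicotine and 2.28-fold under saline.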

How the data were processed

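Kidney RNA of 49 rats in 4 pools was measured on 4 Affymetrix RAE-230A arrays. The deposited values are signal intensity per probe set, made by the authors with MAS5, per the submitters' processing notes. The sources used here do not give the MAS5 version. Each array had a 2% trimmed mean of 150.0. The 57 control probe sets were left out, and no between-array scaling was added. Of 15866 other probe sets, 12783 had 1 gene symbol, 312 several and 2771 none, and symbols were updated through the gene identifier to RefSeq. Signals were raised to the 40th percentile (44.5) before log2. The test of strain and treatment used limma (version 3.58.1, R 4.3.3, additive model, eBayes with intensity trend, Benjamini-Hochberg over all probe sets whose higher group mean reached 89.0), with steps tested on simulated data. Comparisons of 1 array with 1 array have no test. All members are named; those past a test or 1.5-fold apart, those with 2 or more measured probe sets and a fixed set of main matrix genes are given on every array, and other lists by their members past the test, at most 3 in each direction. The members and lists were chosen with earlier results of these data known. Alternatives varied the floor, scaling, trend, filter, probe set choice and arrays.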

Additional observations from a re-analysis of the deposited data

Results flagged for a closer look

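Nid1 probe set 1371032_at had nicotine ratios of opposite direction in the strains: the log2 ratio, nicotine minus saline, was 0.59 in SHR and -0.48 in BN. Of the 12 measured member probe sets with ratios of opposite direction, its ratios lay farthest from 0 in both strains. The difference was not tested, since each strain has 1 pool a treatment. The brighter Nid1 probe set had -0.19 in SHR and 0.03 in BN.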

How the results depend on the processing

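The number of member probe sets past the strain test was within 1.5 times of 13 with either other floor, with quantile or cyclic loess normalisation and with strain as the only factor, an alternative added after the data were seen. It was 8 without the intensity trend, 6 with 1 probe set a gene, which tests fewer probe sets, and 0 with no filter, and between 5 and 10 without 1 array, where 10 includes Mmp14 as lower. Neither Mmp14 nor Vim passed for strain, and their log2 differences reversed to 0.22 for Mmp14 without the SHR saline array and to 0.15 for Vim without the BN nicotine array. Both were lower in SHR and passed in 1 other such fit each, Mmp14 at -1.001 without the SHR nicotine array and Vim at -0.60 without the BN saline array. Over all probe sets the count of 1273 was 743 and 810 after quantile and cyclic loess normalisation, 612 without the trend, 0 with no filter and between 373 and 609 without 1 array. For nicotine, 1 and 12 probe sets passed with the floor at the 20th and 60th percentile, and at the 60th 1 member passed, Vim (adjusted p = 0.0454 with limma, range over alternatives 0.0454 to 1). No nicotine direction of Vim, Mmp14 or Fn1 reversed. The counts at 1.5-fold, either direction, moved with the floor at the 20th percentile to 2 for nicotine in BN, 10 for strain under nicotine and 9 for strain under saline. At the 60th percentile they were 1 for nicotine in SHR and 3 for strain under saline, and with means over probe sets 1, 2 and 3 for nicotine in SHR, strain under nicotine and strain under saline. The cause was not tested. Signals near the floor limit what can be compared, and those below it on all arrays, as for Tgfb1, Mmp9 and Postn, cannot be compared. No paired analysis beyond the additive fit was possible, because each group is 1 pool on 1 array. The additive fit compares strains within treatments and treatments within strains.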
